A study of Homo sapiens with 6 samples.

Results

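The transcription factors that set gastric and intestinal identity were followed in AGS, a cell line established from a human gastric carcinoma, under treatment with celecoxib. The 8 genes are CDX1, CDX2, SOX2, SOX9, GATA4, GATA6, FOXA1 and FOXA2, taken by name from a table of 18417 genes. Each had 1 transcript cluster, the set of probes along a gene that the HuGene-1_0-st array reports as 1 value. Cells were grown for 48 h and then kept for 24 h with 20 µM celecoxib, an inhibitor of the prostaglandin-producing enzyme COX-2 that was dissolved in DMSO, or left as untreated controls, with 3 arrays per group. The sources used here do not say whether control wells held DMSO too. The labels call the arrays biological replicates of 1 cell line, but also say that RNA was pooled after its quality check, so p-values measure only the spread between these arrays, which may be technical. Levels are bulk measures, in which fewer cells of a type and less RNA per cell cannot be told apart.

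Cell identity along the gut is set by a small group of DNA-binding proteins. CDX1 and CDX2, homeobox proteins related to Drosophila caudal, drive intestinal genes and appear in the stomach when its lining turns intestinal, a change called intestinal metaplasia. SOX2, a protein with a high-mobility-group box, marks the foregut that gives rise to oesophagus and stomach, and its relative SOX9 marks progenitor cells of the intestinal crypt. The zinc-finger proteins GATA4 and GATA6 act in endoderm and in gastric and intestinal epithelium, and their genes are amplified in some gastric carcinomas. FOXA1 and FOXA2 are forkhead proteins that open closed chromatin for other factors.

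None of the 8 factors passed the test between celecoxib and control. Their log2 differences, celecoxib minus control, ran from -0.24 for GATA6 to 0.13 for SOX2, with 7 of 8 below 0, where 52.1% of all genes were below 0. Their median was -0.09, against -0.01 over all genes. The test was limma's moderated test over all 18417 genes with Benjamini-Hochberg adjustment and a threshold of 0.05. Of all genes, 0.141% passed it. The adjusted p of the 8 factors lay between 0.431 and 0.867. At an unadjusted p under 0.05 there was 1 of the 8, GATA4, where 11.3% of all genes reached that level. Each 95% interval lay within a 2-fold change in either direction. The interval that reached furthest was that of GATA6, whose lower end is a 1.42-fold decrease.

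Sequence before the gene start was held by the RefSeq promoter table of GRCh38.p14 for 4 of the 8 factors, CDX2, FOXA1, GATA6 and SOX2. The 250 bases before each start are shown because factors of these families are known to regulate one another's genes. Capitals mark words of the families' binding motifs, on either strand.
CDX2 (chr13:27969316-27969565, minus strand): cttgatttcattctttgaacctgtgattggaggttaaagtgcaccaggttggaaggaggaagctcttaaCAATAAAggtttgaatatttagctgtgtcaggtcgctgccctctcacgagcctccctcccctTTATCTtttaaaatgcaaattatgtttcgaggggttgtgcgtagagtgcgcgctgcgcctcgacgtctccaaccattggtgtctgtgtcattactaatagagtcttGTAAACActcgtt
FOXA1 (chr14:37595250-37595499, minus strand): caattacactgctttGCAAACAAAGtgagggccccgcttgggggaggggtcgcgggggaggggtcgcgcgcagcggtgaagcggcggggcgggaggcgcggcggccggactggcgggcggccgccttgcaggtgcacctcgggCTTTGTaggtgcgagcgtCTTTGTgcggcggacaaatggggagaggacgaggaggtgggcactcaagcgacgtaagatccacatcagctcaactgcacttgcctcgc
GATA6 (chr18:22169339-22169588, plus strand): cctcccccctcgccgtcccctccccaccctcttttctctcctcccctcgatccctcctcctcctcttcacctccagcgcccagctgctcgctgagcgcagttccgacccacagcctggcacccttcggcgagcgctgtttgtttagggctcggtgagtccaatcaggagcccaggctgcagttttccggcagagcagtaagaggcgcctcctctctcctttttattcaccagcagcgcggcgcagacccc
SOX2 (chr3:181711675-181711924, plus strand): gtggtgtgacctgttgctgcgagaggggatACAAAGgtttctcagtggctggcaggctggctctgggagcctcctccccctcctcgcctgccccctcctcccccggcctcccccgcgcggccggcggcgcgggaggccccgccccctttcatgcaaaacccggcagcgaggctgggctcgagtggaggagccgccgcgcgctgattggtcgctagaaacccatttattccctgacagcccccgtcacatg

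The words searched were AGATAA for GATA proteins, TTTATNG for CDX proteins, ACAAAG or ACAATG for SOX proteins, and TGTTTNC for FOX proteins. The CDX2 window held 1 CDX, 1 GATA and 1 FOX word. The FOXA1 window held 1 FOX word that overlaps the first of its 3 SOX words. The SOX2 window held 1 SOX word, and the GATA6 window held none of these words. Over the 35116 windows of the same length in the table, 9.17% held the GATA word, 8.93% the CDX word, 21.2% a SOX word and 15.5% a FOX word. The GC content of the windows was 68.8% for SOX2, 67.2% for FOXA1, 64.4% for GATA6 and 45.2% for CDX2, where the median window had 58%. A match describes the letters in the window and no binding was measured.

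The identity of the cells was checked against fixed markers. Signal was set against that of 341 olfactory receptor genes, which are known mainly from olfactory neurons and whose control means had a median of 5.00 and a 95th percentile of 6.30 on the log2 scale. All 7 measured epithelial markers, among them EPCAM, KRT8 and KRT18, were above that percentile in the controls, with means from 7.96 to 12.62. Of the endothelial markers 0 of 5 were above it, of the fibroblast markers 3 of 6, with a highest mean of 7.74, and of the leukocyte markers 2 of 4, with a highest mean of 8.13. The mean over each list of non-epithelial markers overlapped between the groups. Of the 7 epithelial markers, 2 were higher and 5 lower with celecoxib, and 0 passed the threshold in limma. KRT18 had a log2 difference of -0.21 ± 0.07 (SE, limma adjusted p = 0.333) and KRT8 one of -0.16 ± 0.08. In KRT18 alone of the 7 the groups did not overlap, where 7.95% of all genes were separated lower. Of the gut lineage genes, 12 of 20 gastric and 10 of 20 intestinal ones were above that percentile. The median gene of the control arrays was above it too, at 7.26, 7.27 and 7.27. These counts alone therefore do not mark gut identity. The gastric protease genes CTSE and PGC had control means of 13.40 and 9.46, and the intestinal cadherin CDH17 had 10.63. The gastric lipase LIPF (3.06), the gastrokine GKN1 (3.67) and the intestinal sucrase-isomaltase gene SI (4.21) lay below the olfactory receptor median.

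All 8 factors had control means above those of the 341 olfactory receptor genes. Among all genes, control means lay at percentile 48.3 for SOX2, 53.4 for FOXA2, 59.8 for CDX1 and up to 94.3 for GATA6. A signal above the olfactory receptor genes does not by itself show expression. Some close relatives of the factors gave signals at least as high as that of SOX2. GATA1, a factor of red blood cell precursors, had a control mean of 7.28, SOX10, of neural crest, 7.19, and SOX3, of neural progenitors, 8.02. Others lay below all 8 factors, CDX4 at 5.18, GATA2 at 6.44, GATA3 at 6.53 and SOX1 at 6.82. The 10 relatives measured had control means from 5.18 to 8.18, the highest that of the endodermal gene GATA5. The control means of SOX2 (7.18), FOXA2 (7.45) and CDX1 (7.78) lay within that range, and those of CDX2 (8.34), FOXA1 (8.81), SOX9 (9.21), GATA4 (9.48) and GATA6 (10.36) lay above it. Clusters differ in probe affinity, so the order of these means is not an order of RNA amounts, and detection above background was not tested. SOX2 lies within the noncoding gene SOX2-OT in the GRCh38.p14 annotation, and that gene was not analysed here.

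The intestinal homeobox genes CDX1 and CDX2 overlapped between the groups. CDX2 had log2 values of 8.09, 8.54 and 8.18 in celecoxib arrays, against 8.40, 8.46 and 8.14 in control arrays. The highest value was that of celecoxib 2 and the lowest that of celecoxib 1, so the celecoxib arrays spanned the controls. The means were 8.27 ± 0.24 with celecoxib and 8.34 ± 0.17 in controls (SD, n = 3 each). The log2 difference was -0.07 ± 0.13 (SE, 95% interval from -0.37 to 0.24, limma adjusted p = 0.867). CDX1 had log2 values of 7.78, 7.58 and 7.78 in celecoxib arrays, against 7.76, 7.74 and 7.84 in control arrays. Celecoxib 2 was the lowest of the 6, and the other celecoxib arrays lay among the controls. The difference for CDX1 was -0.07 ± 0.08 (95% interval from -0.25 to 0.12, limma adjusted p = 0.776).

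SOX2 was the 1 factor with a positive difference. It had log2 values of 7.12, 7.51 and 7.32 in celecoxib arrays, against 7.09, 7.45 and 7.01 in control arrays. Arrays numbered 2 were the highest in both groups, and the groups overlapped. The difference was 0.13 ± 0.14 (95% interval from -0.19 to 0.45, limma adjusted p = 0.734). SOX9 had log2 values of 8.91, 9.25 and 9.19 in celecoxib arrays, against 9.16, 9.33 and 9.13 in control arrays. Celecoxib 1 was below the other 5 arrays, which lay close together. The difference for SOX9 was -0.09 ± 0.11 (95% interval from -0.33 to 0.15, limma adjusted p = 0.764).

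The GATA genes had the lowest differences of the 8. GATA4 had log2 values of 9.12, 9.36 and 9.33 in celecoxib arrays, against 9.48, 9.54 and 9.40 in control arrays. All 3 celecoxib values lay below all 3 control values, the 1 factor of the 8 whose groups did not overlap, where 7.95% of all genes were separated in this direction. The means were 9.27 ± 0.13 with celecoxib and 9.48 ± 0.07 in controls (SD, n = 3 each). The difference was -0.21 ± 0.09 (95% interval from -0.41 to -0.01, limma unadjusted p = 0.0446, adjusted p = 0.431). GATA6 had log2 values of 9.87, 10.26 and 10.24 in celecoxib arrays, against 10.39, 10.44 and 10.26 in control arrays. Celecoxib 1 was far below the rest, and celecoxib 2 and control 3 had nearly the same value. The means were 10.12 ± 0.22 with celecoxib and 10.36 ± 0.10 in controls (SD, n = 3 each), and the difference was -0.24 ± 0.12 (95% interval from -0.50 to 0.03, limma adjusted p = 0.468).

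The forkhead genes also overlapped between the groups. FOXA1 had log2 values of 8.40, 8.78 and 8.77 in celecoxib arrays, against 8.78, 8.97 and 8.68 in control arrays. Celecoxib 1 was again the lowest array, and the other 2 celecoxib arrays lay within the range of the controls. The difference for FOXA1 was -0.16 ± 0.12 (95% interval from -0.44 to 0.12, limma adjusted p = 0.620). FOXA2 had log2 values of 7.24, 7.39 and 7.43 in celecoxib arrays, against 7.36, 7.46 and 7.55 in control arrays. Its groups overlapped as well, with celecoxib 1 at the low end and control 3 at the high end. The difference for FOXA2 was -0.10 ± 0.08 (95% interval from -0.29 to 0.10, limma adjusted p = 0.674).

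**Figure D1:**
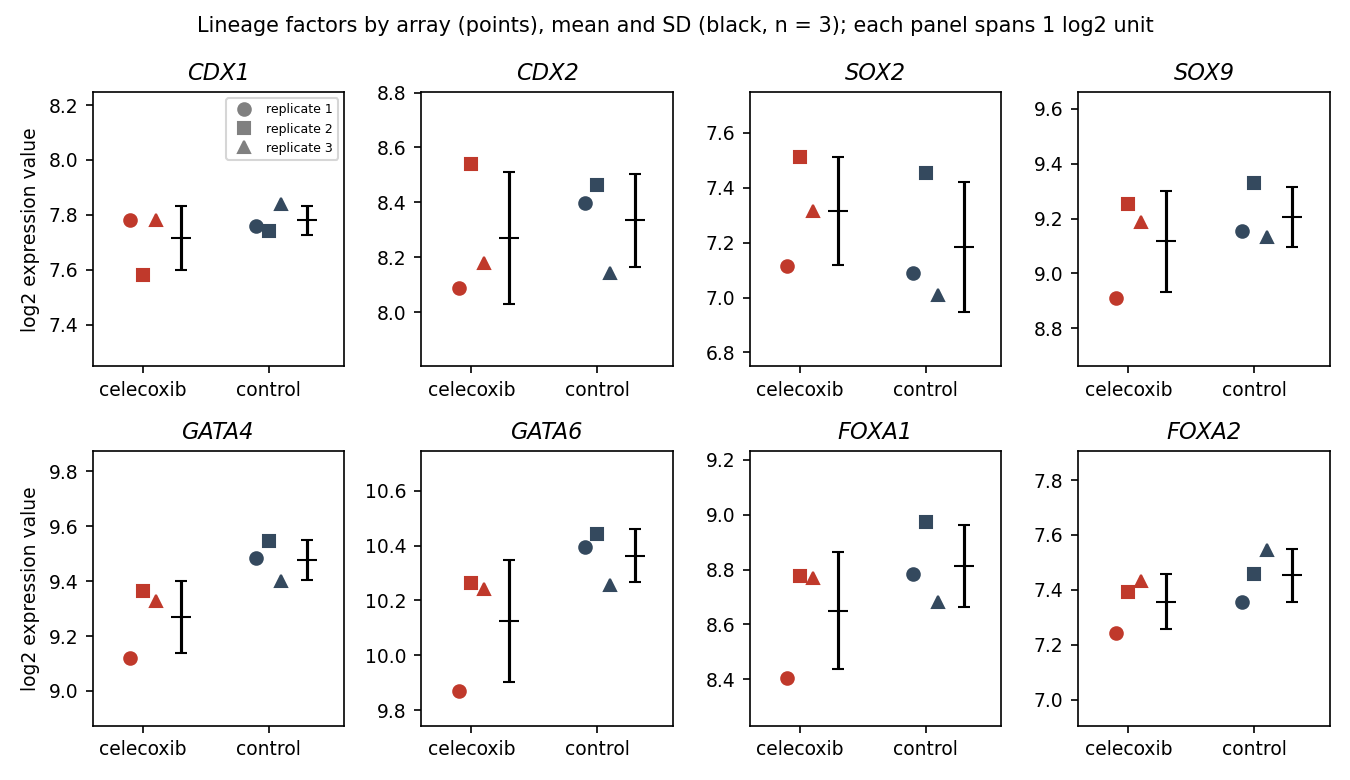
Log2 expression values of the 8 factors, 1 panel per gene, with the 3 celecoxib arrays on the left and the 3 control arrays on the right; black marks show the group mean and SD (n = 3). Each panel spans 1 log2 unit. GATA4 is the 1 gene whose groups do not overlap, and celecoxib replicate 1 is the lowest point in 6 panels.

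The differences shifted when single arrays were left out. Leaving out a gene's lowest celecoxib array, or its highest control array, always raises its difference. Celecoxib 1 was the lowest of the 6 arrays for 6 of the 8 factors, CDX2, SOX9, GATA4, GATA6, FOXA1 and FOXA2, whereas it was the lowest for 22.5% of all genes. Control 2 was the highest array for 18.2% of all genes and for 4 of the 8 factors, SOX9, GATA4, GATA6 and FOXA1. Without control 2 their log2 differences were -0.03, -0.17, -0.20 and -0.08. The SD over the celecoxib arrays exceeded that over the controls in 7 of the 8 factors and in 62.9% of all genes. Without celecoxib 1, the log2 differences moved to 0.03 for CDX2, 0.01 for SOX9, -0.13 for GATA4, -0.11 for GATA6, -0.04 for FOXA1 and -0.04 for FOXA2. SOX2 stood at 0.23 and CDX1 at -0.10 without it, so that 5 factors were below 0 instead of 7. None passed the threshold without it (limma adjusted p from 0.632 to 0.977, and 0 of 8 at an unadjusted p under 0.05).

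Small nuclear and nucleolar RNA genes stood apart in that array as well. The median log2 value of 207 such genes was 7.68, 7.27 and 7.27 in celecoxib arrays, against 7.14, 7.01 and 7.14 in control arrays. Celecoxib 1 had the highest level and control 2 the lowest, and the groups did not overlap. With that level as a covariate, 2 of the 8 differences were below 0, CDX1 at -0.15 and GATA4 at -0.03, and none passed the threshold (limma adjusted p from 0.471 to 0.953). SOX2 stood at 0.42 (limma unadjusted p = 0.0283, adjusted p = 0.471), the 1 factor under an unadjusted p of 0.05 in that fit. The part of this RNA in the differences cannot be told apart from that of celecoxib, because the groups are separated in it.

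**Figure D2:**
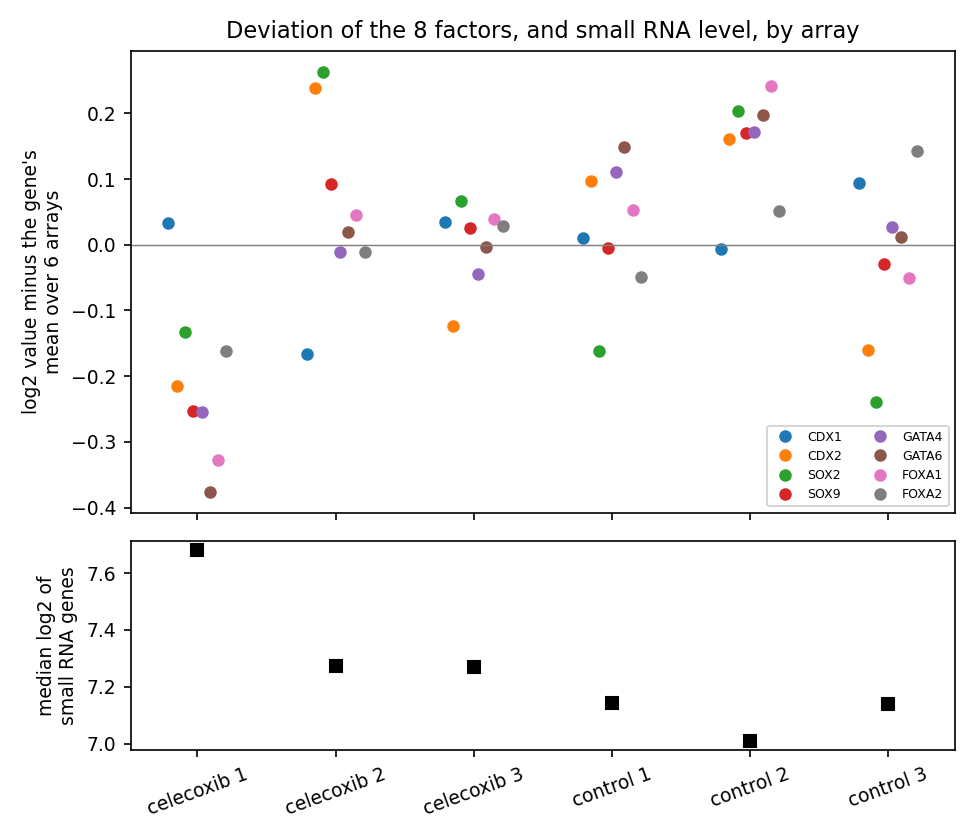
Upper panel: log2 value of each of the 8 factors minus that gene's mean over the 6 arrays, by array, with colours for genes. Lower panel: median log2 value of 207 small nuclear and nucleolar RNA genes in the same arrays, which is highest in celecoxib 1, where 7 of the 8 factors lie below their mean.

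**Figure D3:**
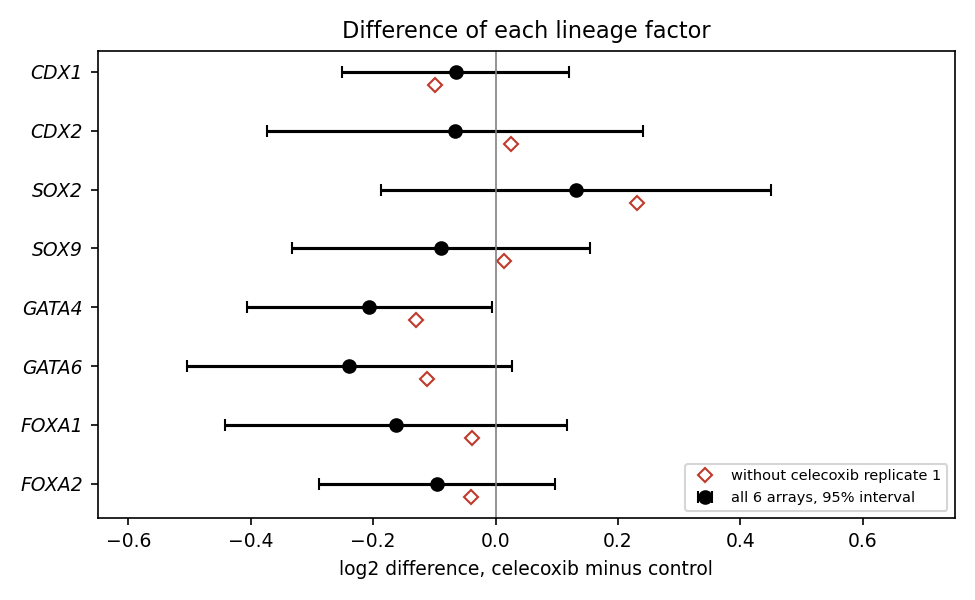
Log2 difference, celecoxib minus control, of each factor with its 95% interval over 6 arrays (black), and the difference without celecoxib replicate 1 (open diamonds). The interval of GATA4 alone lies wholly below 0, from -0.41 to -0.01, before adjustment over genes.

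Other transcription factors of the gut were compared as a list. Of 22 analysed here, 15 were lower and 7 higher, with a median log2 difference of -0.08, and 0 passed the threshold in limma. At an unadjusted p under 0.05 there were 4, all lower, where 4.44% of all genes were lower at that level. HES1, the Notch target that holds back secretory cell fate, had log2 values of 8.94, 9.04 and 8.98 in celecoxib arrays, against 9.17, 9.19 and 9.26 in control arrays. SOX4, a progenitor factor, had 7.63, 7.82 and 7.74 in celecoxib arrays, against 7.98, 7.99 and 7.96 in control arrays. The groups did not overlap in either gene, where 4 of the 22 and 7.95% of all genes were separated in this direction. The differences of HES1 and SOX4 were -0.22 ± 0.07 and -0.25 ± 0.07 (limma adjusted p = 0.328 and 0.322). FOXQ1, a forkhead factor of gastric surface cells in mice, differed by -0.34 ± 0.14, and the epithelial ETS factor EHF by -0.31 ± 0.12. With the small RNA covariate SOX4 stood at -0.13, FOXQ1 at 0.02 and EHF at -0.60. Celecoxib 1 was the lowest array for 8 of the 22, where it was the lowest for 22.5% of all genes.

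Relatives in the same families gave no call either. Of 10 relatives of the CDX, GATA, FOXA and SOX genes, 4 were higher and 6 lower, with a median of -0.03. At an unadjusted p under 0.05 there were 0, and limma passed 0. CDX4, the third caudal-type gene, differed by 0.17 ± 0.09 at a control mean of 5.18. GATA1 differed by -0.16 ± 0.08, GATA2 by 0.11 ± 0.07 and GATA5, the other endodermal GATA gene, by -0.10 ± 0.08.

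Cofactors that bind the lineage factors or share their target sites came next. Of 12 measured, 8 were lower and 4 higher, with a median of -0.12, and 0 passed the threshold in limma. At an unadjusted p under 0.05 there was 1 of the 12, lower, where 4.44% of all genes were lower at that level. TLE1, a Groucho-type corepressor, had log2 values of 8.67, 9.12 and 8.99 in celecoxib arrays, against 9.27, 9.38 and 9.15 in control arrays, and its groups did not overlap, as in 7.95% of all genes in this direction. Its difference was -0.34 ± 0.12 (limma adjusted p = 0.374), but -0.21 without celecoxib 1 and -0.03 with the small RNA covariate. ZFPM1, a partner of GATA proteins, differed by -0.20 ± 0.09, the Wnt effector TCF7L2 by -0.22 ± 0.13 and the chromatin remodeller SMARCA4 by -0.24 ± 0.16. Without celecoxib 1, TCF7L2 stood at -0.08 and SMARCA4 at -0.09. Celecoxib 1 was the lowest array for 8 of the 12, where it was the lowest for 22.5% of all genes.

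Genes of differentiated intestinal cells, many of them known CDX2 targets, included larger differences, in both directions, than those of CDX1 and CDX2. Of 20 measured members, 12 were higher and 8 lower, with a median of 0.04, and 0 passed the threshold in limma. At an unadjusted p under 0.05 there were 5 higher and 1 lower, where 6.87% of all genes were higher and 4.44% lower. CEACAM5, the carcinoembryonic antigen, had log2 values of 8.44, 8.36 and 8.45 in celecoxib arrays, against 7.83, 7.85 and 8.01 in control arrays. Its difference was 0.52 ± 0.08 (limma adjusted p = 0.0561). CFTR, the chloride channel, had 10.77, 10.73 and 10.81 in celecoxib arrays, against 10.40, 10.36 and 10.46 in control arrays, and differed by 0.36 ± 0.07 (limma adjusted p = 0.120). The mucin MUC13 differed by 0.53 ± 0.08 and VIL1, which bundles actin in microvilli, by -0.47 ± 0.08 (limma adjusted p = 0.0638 and 0.0966). In each of these 4 genes, named for the smallest p of the list, the groups did not overlap. Of the 20 genes, 5 were separated higher and 3 lower. Of all genes 7.95% were separated lower. The share separated higher was not counted, so the 5 are not read as a result about intestinal genes.

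Genes of gastric epithelium were compared in the same way. Of 20 measured members, 6 were higher and 14 lower, with a median of -0.03, and 0 passed the threshold in limma. At an unadjusted p under 0.05 there was 1 of the 20, higher, where 6.87% of all genes were higher at that level. This was CLDN18, a claudin of stomach tight junctions. It had log2 values of 6.65, 6.70 and 6.79 in celecoxib arrays, against 6.53, 6.57 and 6.53 in control arrays, and differed by 0.17 ± 0.07 (limma adjusted p = 0.429). The water channel AQP5 differed by -0.17 ± 0.09, the proton pump subunit ATP4A by -0.17 ± 0.12 and the gastrokine GKN2 by -0.29 ± 0.22, at a control mean of 3.72. GKN2 stood at -0.03 without control 3, its highest array, and ATP4A ran from -0.28 without control 2 to -0.07 without control 1.

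Of the intestinal progenitor and Wnt target genes, 13 were measured, 9 higher and 4 lower, with a median of 0.02. Limma passed 0, and 0 reached an unadjusted p under 0.05. LGR5, the receptor that marks crypt stem cells, had a high signal in both groups, with log2 values of 12.33, 12.38 and 12.37 in celecoxib arrays, against 12.30, 12.27 and 12.25 in control arrays. Its difference was 0.09 ± 0.06 (limma adjusted p = 0.616). The Wnt feedback gene AXIN2 differed by -0.36 ± 0.16 and had its lowest value, 9.25, in celecoxib 1. NKD1, another feedback gene, differed by -0.13 ± 0.07, and RNF43, a ligase that removes Wnt receptors, by 0.10 ± 0.09.

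Genes of endoderm and liver that FOXA proteins are known to regulate held the 1 gene of these lists past the threshold. Of all genes, 0.141% passed it, and the lists were chosen with earlier results of these data known. A call in this list is therefore no result about FOXA targets. APOA2, an apolipoprotein, rose, with log2 values of 11.67, 11.19 and 11.28 in celecoxib arrays, against 10.21, 10.13 and 10.53 in control arrays. Its difference was 1.09 ± 0.15 (limma adjusted p = 0.0449). It did not pass when any 1 array was left out (adjusted p from 0.0826 to 0.283), with differences from 0.95 to 1.21. Of the 14 genes, 8 were higher and 6 lower, with a median of 0.04, and 4 were higher at an unadjusted p under 0.05, where 6.87% of all genes were. The fibrinogen chain genes FGA and FGG differed by 0.44 ± 0.10 and 0.40 ± 0.11, and the secretory-pathway gene AGR2 by 0.50 ± 0.13, none past the threshold. With small RNA level as a covariate they stood at 0.26, 0.15 and 0.16, with limma adjusted p of 0.555, 0.635 and 0.582, and APOA2 stood at 0.74 (limma adjusted p = 0.279). In each of these 4 genes, all higher with celecoxib, the highest array was celecoxib 1, as for 27.4% of all genes.

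**Figure D4:**
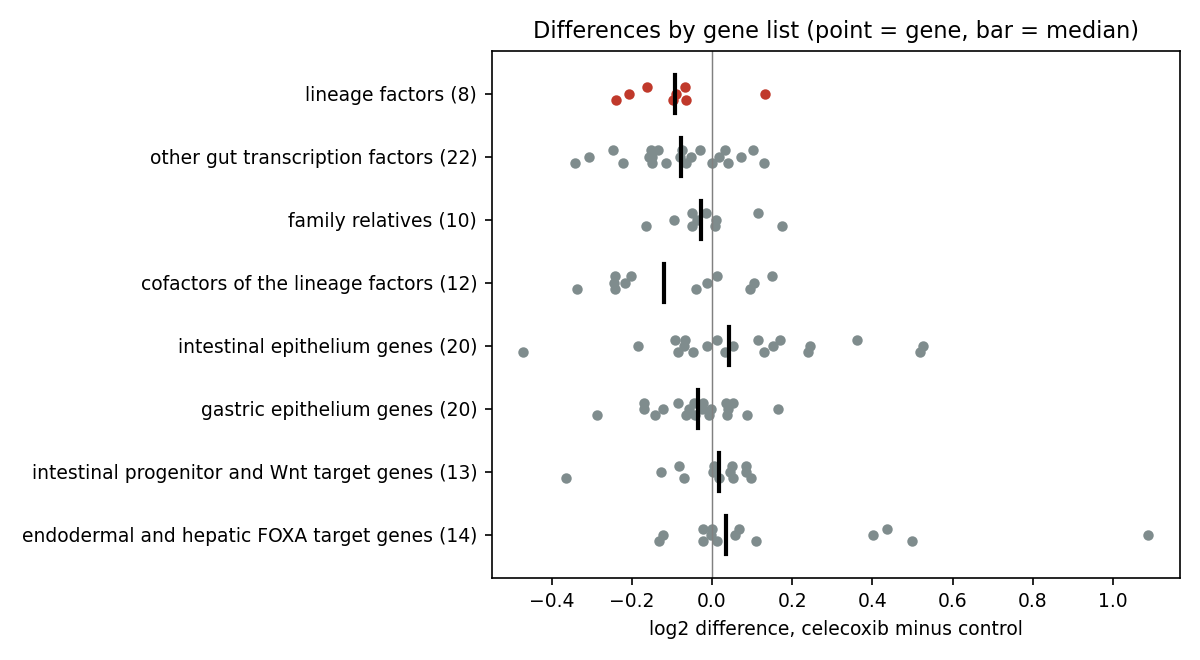
Log2 difference, celecoxib minus control, of each gene (point) in the 8 lineage factors (red) and in 7 gene lists (grey), with the number of measured genes in parentheses and the median as a black bar. The lineage factors lie between -0.24 and 0.13, and the one point above 1 is APOA2.

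The genes most like each factor over the 6 arrays were found by Pearson's r, as a description with no test. With 6 arrays and 18417 genes to choose from, values near 1 occur for every factor. GATA4 was most like JUN and GRB7 (r = 0.998 for both, 6 arrays), and GATA6 most like CASKIN2 and GGT7 (0.997 for both). SOX9 was most like NFIB (0.998) and PCOLCE (0.996), and FOXA1 most like HSF1 and GPCPD1 (0.998 for both). CDX2 was most like ACACB (0.997) and GNA12 (0.990), CDX1 most like FGF8 (0.997) and OR4S1 (0.996), an olfactory receptor gene. SOX2 was most like ATRN (0.992) and ETS2 (0.988), and FOXA2 most like ZNF536 (0.996) and TSEN54 (0.992). No factor was among the 2 genes most like another.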

How the data were processed

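RNA of 6 samples of AGS cells was read on HuGene-1_0-st arrays. The deposited table holds log2 values, 1 per transcript cluster, which the authors made by RMA with Affymetrix Expression Console 1.1, per the submitters' processing notes. RMA corrects background, gives arrays a common distribution and sums probes, which can narrow differences of dim genes. No source used here names probe-level settings, slides or scan dates, so batches were not tested. Precision is limited by the number of arrays, 3 per group. Of 33297 clusters, 19460 had 1 gene symbol in the platform annotation, 1754 had several and 12083 were unnamed here. The cluster with the highest mean stood for a gene, which left 18417 genes. Groups came from the labels. Differences were fitted in R 4.3.3 by limma 3.58.1 (functions lmFit and eBayes), two-sided and with no filter on signal, with Benjamini-Hochberg adjustment over all genes. The fit was tested on simulated data. Python 3.11.15 and matplotlib 3.10.9 drew the figures.

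The members and gene lists were chosen with earlier results of these data known. Named genes are the 8 factors, up to 4 genes of each list with the smallest p, list genes past the threshold, and the 2 genes most like each factor. CTSE, PGC, CDH17, LIPF, GKN1, SI, EPCAM, GATA3, SOX1, SOX3 and SOX10 were named for their levels after their values were seen. Alternatives were other clusters, filters, normalizations, variance priors, array weights, a small RNA covariate, a replicate block and the omission of each array in turn.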

Additional observations from a re-analysis of the deposited data

How the results depend on the processing

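None of the 8 factors passed the threshold under any of the 17 alternatives (0 of 8 in limma each time, with 0 to 2 at an unadjusted p under 0.05, and a lowest adjusted p of 0.207). Of 136 differences of the factors under them, 9 had the opposite sign. With the small RNA covariate the difference was 0.161 for CDX2, 0.165 for SOX9, 0.0484 for GATA6, 0.143 for FOXA1 and 0.0228 for FOXA2, and with array weights it was 0.00804 for FOXA2. Leaving out each array gave differences from -0.0987 to 0.00177 for CDX1, -0.202 to 0.0250 for CDX2 and -0.158 to 0.0144 for SOX9.

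The count over all genes, 26, was 0 with all clusters tested together (2551 at an unadjusted p under 0.05), 76 among genes brighter than the median cluster, 59 once the dimmest 20% were dropped, 44 with quantile normalization over named genes, 69 with an intensity trend with or without a robust prior, 177 with array weights, 1 with the small RNA covariate and 0 to 5 when each array was left out. The count over the 132 other listed genes, 1, was 0 with all clusters, 4 among those brighter genes, 3 once the dimmest 20% were dropped, 4 with an intensity trend with or without a robust prior, 6 with array weights, 0 with the small RNA covariate and 0 when each array was left out. The genes added were among CEACAM5, MUC13, VIL1, CFTR and FGA. With the covariate the sign turned for FOXQ1 (0.0172), AXIN2 (0.0718), TCF7L2 (0.115), SMARCA4 (0.129) and CDH1 (0.147), and CDH1 ran from -0.126 to 0.0348 over the arrays left out. The causes were not tested.

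With 3 arrays per group, whether replicate numbers pair the arrays could not be settled. Deviations from the group means correlated at -0.0175, 0.494 and 0.0120 for same-numbered arrays. For arrays of different numbers they correlated from -0.493 to 0.408. With the replicate block, 0 of all genes passed (2448 at an unadjusted p under 0.05), 0 of the 8 factors and 0 of the other listed genes.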
